A study of Mus musculus with 2 samples.

Results

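The 9 genes described here are components of the Notch pathway and members of the Hes family: the receptors *Notch1* and *Notch2*, the ligands *Dll1*, *Dll4* and *Jag1*, the DNA-binding factor *Rbpj*, the targets *Hes1* and *Nrarp*, and the Hes family gene *Hes6*. They are 9 of the 27998 genes counted, found by their symbols, and each symbol had a single entry. The genes were selected on their levels and ratios in an earlier look at the same libraries, so every value below is a description and none is a test. Ileal epithelial cells had been profiled in 2 single-cell libraries, 1 of wild-type (WT) and 1 of *Tipe0*-/- mice (labelled TNFAIP8-/-), all on a C57BL/6 background and 8 weeks old. The deletion is in the whole animal, and cells of several mice of a genotype were pooled into its library, so that genotype, pool and library cannot be told apart.

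In the intestinal crypt, Notch signaling separates absorptive from secretory fates. A ligand of the Delta or Jagged type on a cell that is becoming secretory activates a receptor on its neighbour, the receptor is cleaved, and its inner fragment joins Rbpj on DNA. This turns on *Hes1*, which represses *Atoh1*, the transcription factor of the secretory lineages, while *Nrarp* is turned on as a feedback inhibitor and *Hes6* encodes a relative of Hes1 known to counteract it.

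The WT library held 3402 cells and 38127808 unique molecular identifiers (UMIs, counted mRNA molecules), and the *Tipe0*-/- library held 2006 cells and 23897126 UMIs. The median depth was 7760 UMIs per cell in WT and 7307.5 in *Tipe0*-/-, and 9 cell barcodes occurred in both libraries. The deleted gene, *Tnfaip8*, had 9.76 UMIs per 1000000 (CPM) in WT and 2.39 CPM in *Tipe0*-/-. *Nnt*, of which some C57BL/6 substrains carry a deletion, stood at 12.2 CPM in WT and 41.1 CPM in *Tipe0*-/-, so a difference of substrain cannot be told apart from the genotype. Mitochondrial genes took 6.59% of UMIs in WT and 8.56% in *Tipe0*-/-. Summed lymphocyte markers were at 233 CPM in WT and 60.3 CPM in *Tipe0*-/-, and 11 of the 11 tested markers were at least 1.5-fold lower. Intervals given below are exact 95% intervals for counting error only, and log2 ratios are *Tipe0*-/- over WT. Over the 11665 genes with at least 50 UMIs the median log2 ratio was 0.15, and a gene is called past the fold when it lay at least 1.5-fold from that median.

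*Hes1*, the repressor that keeps cells out of the secretory lineage, was the member with the largest difference between the genotypes. The WT library held 1987 UMIs of *Hes1*, or 52.1 CPM (49.8 to 54.5). The *Tipe0*-/- library held 2580 UMIs from fewer cells, or 108 CPM (104 to 112). The log2 ratio was 1.05 (0.97 to 1.14), a 2.07-fold higher level, or 1.86-fold relative to the median gene. Ranked by ratio, *Hes1* was number 151 of the 11665 genes, and number 6 of the 2459 genes with at least 50 CPM in *Tipe0*-/-. Since the gene was chosen with its ratio known, these ranks only describe it. The second rank also keeps genes by their level in the library where *Hes1* was higher.

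*Nrarp*, the feedback inhibitor, was at 26.1 CPM (24.6 to 27.8) in WT and at 44.8 CPM (42.2 to 47.6) in *Tipe0*-/-, which gives a log2 ratio of 0.78 (0.65 to 0.90). *Hes6* differed little between the libraries. It was at 47.2 CPM (45.1 to 49.5) in WT and at 48.7 CPM (46.0 to 51.6) in *Tipe0*-/-. Its log2 ratio of 0.04 (-0.06 to 0.15) became -0.11 once set against the median gene, so it had no direction that was independent of scaling.

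The ligand *Dll1*, which secretory cells present to their neighbours, was at 10.7 CPM (9.66 to 11.8) in WT and at 18.3 CPM (16.7 to 20.1) in *Tipe0*-/-, which gives a log2 ratio of 0.78 (0.58 to 0.98). The other ligands differed less: *Dll4* had 6.11 CPM (5.35 to 6.95) in WT against 7.91 CPM (6.82 to 9.12), and *Jag1* had 5.09 CPM (4.40 to 5.86) against 6.07 CPM (5.12 to 7.14). For *Jag1* the interval of the log2 ratio, -0.07 to 0.57, included 0. Among the receptors, *Notch1* was at 16.8 CPM (15.5 to 18.1) in WT and 23.9 CPM (22.0 to 25.98) in *Tipe0*-/-, and *Notch2* was at 6.71 CPM (5.92 to 7.59) in WT and 10.4 CPM (9.13 to 11.8) in *Tipe0*-/-. Their log2 ratios were 0.51 (0.35 to 0.68) and 0.63 (0.37 to 0.89). *Rbpj*, through which all of the receptors act, was nearly level, at 19.1 CPM (17.7 to 20.5) in WT and 21.1 CPM (19.3 to 23.0) in *Tipe0*-/-.

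All 9 members had at least 50 UMIs. Of them 3 (*Hes1*, *Nrarp* and *Dll1*) were at least 1.5-fold higher in *Tipe0*-/- than the median gene, where 4.23% of all genes were, and 0 were at least 1.5-fold lower, where 6.9% of all genes were. Since the genes were chosen from this contrast, nothing is read from that count. *Nrarp* and *Dll1* lay just past the fold, at 1.54-fold each relative to the median gene. The plot of levels in whole libraries shows the members in order of their roles.

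**Figure D1:**
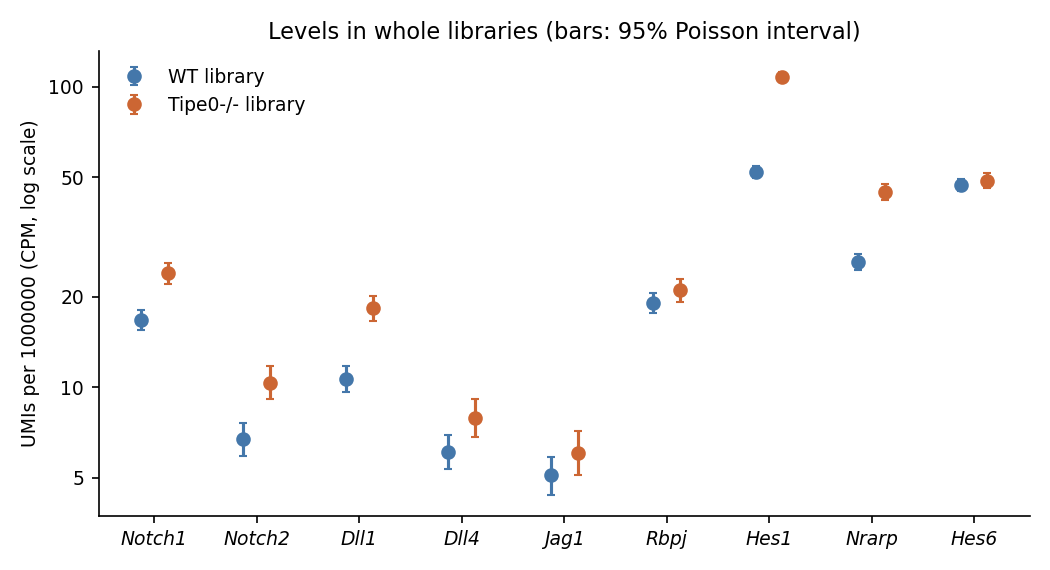
Level of each gene in the WT (blue) and *Tipe0*-/- (orange) library, in UMIs per 1000000 on a log axis. Points are library values and bars exact 95% Poisson intervals. *Hes1* stands at 52.1 and 108 CPM, with intervals that do not overlap, while those of *Hes6* (47.2 and 48.7 CPM) do.

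**Figure D2:**
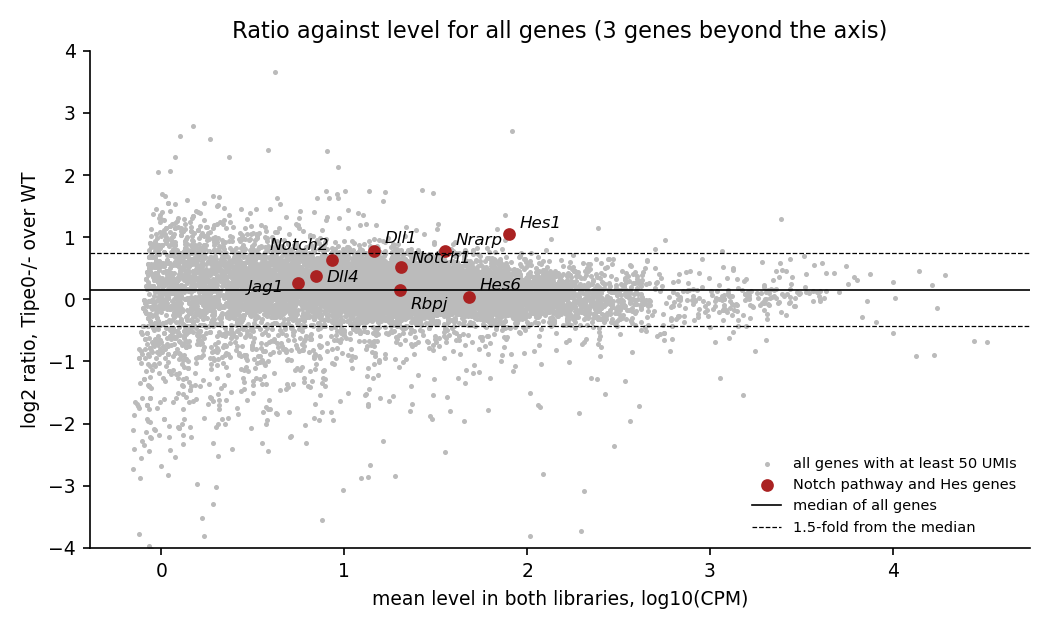
Log2 ratio, *Tipe0*-/- over WT, against mean log10 CPM of both libraries, for the 11665 genes with at least 50 UMIs (grey) and the 9 members (red). The solid line is the median of all genes, 0.15, and dashed lines lie 1.5-fold from it. *Hes1* lies at 1.05, above nearly all genes of its level, and *Hes6* near the median line.

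The stretch before the start of transcription is shown for *Nrarp* and *Dll1*, which were higher in *Tipe0*-/-, and for *Hes6*, which was level, so that their upstream letters can be compared. The sequences are the 250 bases before the start in RefSeq (GRCm38.p6), on the coding strand and 5′ to 3′, and 8 of the 9 members matched an entry. *Dll1* and *Hes6* had 2 entries each, of which the outermost is shown. Capitals mark the N box CACNAG, a site for Hes proteins, and the E box CAGCTG, a site for basic helix-loop-helix activators, searched on both strands. No marked match overlaps another.
Nrarp, chr2:25180508-25180757, plus strand: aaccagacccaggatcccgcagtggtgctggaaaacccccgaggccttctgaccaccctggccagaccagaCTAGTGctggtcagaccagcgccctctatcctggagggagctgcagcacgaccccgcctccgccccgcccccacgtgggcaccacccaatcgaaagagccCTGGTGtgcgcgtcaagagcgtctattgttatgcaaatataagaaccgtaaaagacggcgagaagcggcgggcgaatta
Dll1, chr17:15376933-15377182, minus strand: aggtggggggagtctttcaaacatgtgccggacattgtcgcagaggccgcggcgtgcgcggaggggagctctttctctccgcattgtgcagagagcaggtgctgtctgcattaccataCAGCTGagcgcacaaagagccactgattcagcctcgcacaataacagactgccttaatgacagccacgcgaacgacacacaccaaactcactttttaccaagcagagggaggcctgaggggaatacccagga
Hes6, chr1:91414039-91414288, minus strand: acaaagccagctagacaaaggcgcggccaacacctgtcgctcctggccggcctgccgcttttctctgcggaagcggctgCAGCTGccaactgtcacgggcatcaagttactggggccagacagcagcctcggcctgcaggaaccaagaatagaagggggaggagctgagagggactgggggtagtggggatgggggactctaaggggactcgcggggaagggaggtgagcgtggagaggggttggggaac
The *Nrarp* stretch held an N box starting 179 and another 79 bases before the start. The *Dll1* stretch held an E box 132 bases before it, and that of *Hes6* an E box 171 bases before it. The further *Hes6* entry held an N box as well as an E box, and the further *Dll1* entry held neither, so the matches depend on the entry shown. Of 32851 mouse promoters cut to the same length, 36.7% held an N box and 13.0% an E box. The core letters bound by Rbpj, TGGGAA, occurred in 21.6% of all promoters and in none of these 3 stretches. Among the members' 11 entries they were found only in the 2 entries of *Rbpj* itself. *Hes1* was the member without an entry, so its promoter was not searched. A match is a description of letters and not of binding.

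Cells were grouped into 13 clusters without the members among the clustering genes, and 11 clusters could be named from markers of 8 classes. Their names, with leading genes where a class had several, were stem-like (*Lgr5*, *Olfm4*), cycling-like (*Cdc20*, *Ccnb1*), 3 goblet-like clusters led by *Id4*, *Sval1* and *Frmd3*, Paneth-like, enteroendocrine-like, tuft-like, 2 enterocyte-like clusters led by *Arg2* and *Apoa4*, and lymphocyte-like, which was led by B cell genes such as *Vpreb3*. Of the unnamed clusters, 1 was led by genes of DNA replication (*Cdc6*, *Ccne2*) and the other by *Lrg1* and *Gsdmc3*. The *Id4* goblet-like cluster, which also carried *Spdef* and *Creb3l1* among its leading genes, was deep, with a median of 15730 UMIs per cell in WT and 17705.5 in *Tipe0*-/-. The labels call the cells enterocytes, but enterocyte markers named only the *Arg2* cluster (10.4% of WT and 8.77% of *Tipe0*-/- cells) and the *Apoa4* cluster (12.9% and 11.3%).

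In both libraries *Hes1* was highest in the stem-like cluster and lowest in the *Apoa4* enterocyte-like cluster. In WT it was highest in the stem-like cluster, at 128 CPM (114 to 143), then in the *Cdc6* cluster, at 90.5 CPM (78.4 to 104), the *Id4* goblet-like cluster, at 76.4 CPM (69.7 to 83.5), and the cycling-like cluster, at 69.9 CPM (62.8 to 77.6). It was lowest in the absorptive clusters, at 20.5 CPM (15.8 to 26.1) in the *Arg2* and 6.00 CPM (3.76 to 9.09) in the *Apoa4* enterocyte-like cluster, a 21.3-fold span. In WT the stem-like value lay above its neighbour beyond counting error, whereas the intervals of all following neighbours overlapped, down to the step between the *Arg2* and *Apoa4* clusters. In *Tipe0*-/- the intervals of the stem-like and the next cluster nearly touched, with both ends rounding to 184 CPM. The *Apoa4* cluster stood apart from all others. The *Arg2* cluster, at 59.0 CPM, was there near the Paneth-like (58.1 CPM) and *Sval1* goblet-like (53.6 CPM) clusters.

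The level in *Tipe0*-/- was higher in 13 of 13 clusters. It reached 201 CPM (184 to 220) in the stem-like, 163 CPM (144 to 184) in the *Cdc6*, 133 CPM (120 to 147) in the cycling-like and 122 CPM (113 to 131) in the *Id4* goblet-like cluster. Mature secretory cells shared the difference in CPM, though the intervals of their shares of cells with *Hes1*, described below, overlapped. Paneth-like cells went from 25.7 CPM (22.0 to 29.8) in WT to 58.1 CPM (50.6 to 66.3) in *Tipe0*-/-. Tuft-like cells went from 52.2 CPM (42.9 to 62.9) to 98.1 CPM (79.8 to 119), and *Sval1* goblet-like cells from 29.5 CPM (20.5 to 41.0) to 53.6 CPM (37.8 to 73.9). In the *Frmd3* goblet-like cluster the values were 34.5 CPM (26.7 to 43.8) and 91.5 CPM (73.8 to 112). The median gene of the Paneth-like cluster itself had a log2 ratio of 0.48, and relative to it *Hes1* was 1.62-fold higher there. The absorptive clusters showed a difference too, at low levels. The *Arg2* cluster stood at 20.5 CPM in WT and 59.0 CPM (47.5 to 72.3) in *Tipe0*-/-, and the *Apoa4* cluster at 6.00 and 17.2 CPM (11.5 to 24.7). *Dll1*, taken below as a background in the *Apoa4* cluster, was there at 6.00 CPM in WT and 7.71 CPM in *Tipe0*-/-. Whether the *Hes1* UMIs of this cluster came from its own cells or from RNA of other cells was not tested.

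In the 11 clusters with at least 50 UMIs of *Hes1*, the log2 ratio ran from 0.65 (0.45 to 0.86) in the stem-like cluster to 1.52 (1.05 to 2.004) in the *Arg2* enterocyte-like cluster. It was past the fold relative to the cluster's own median gene in 11 of 11, and its interval lay above that median in 11 of 11. The stem-like and the *Arg2* intervals do not overlap, but the difference between these ratios was not tested. The enteroendocrine-like and lymphocyte-like clusters were too thin for a call: 18 UMIs in WT against 17 in *Tipe0*-/- in the former, and 23 against 9 in the latter.

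**Figure D3:**
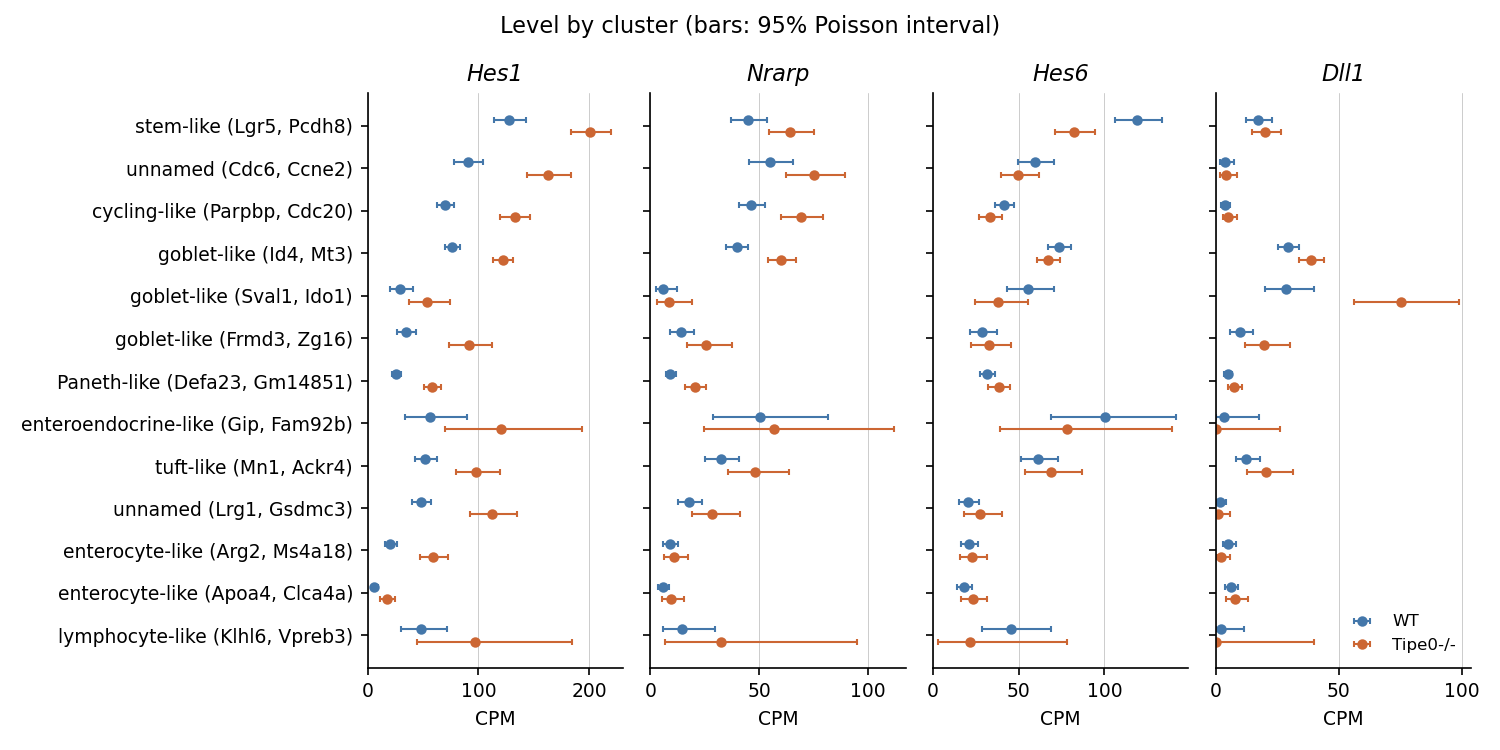
Level of *Hes1*, *Nrarp*, *Hes6* and *Dll1* (CPM) in each of the 13 clusters, named with their 2 leading genes, in WT (blue) and *Tipe0*-/- (orange). Bars are exact 95% Poisson intervals. *Hes1* in the stem-like cluster is at 128 and 201 CPM, *Hes6* there at 119 and 82.2 CPM, and *Dll1* in the *Sval1* goblet-like cluster at 28.7 and 75.4 CPM.

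Of the 4 clusters richest in *Hes1*, 3 made up more of the *Tipe0*-/- library. Stem-like cells were 8.85% of WT and 12.4% of *Tipe0*-/- cells, cells of the *Cdc6* cluster 9.47% and 12.9%, and *Id4* goblet-like cells 11.3% and 15.7%, while cycling-like cells were 11.99% and 11.8%. The stem-like and *Id4* clusters gave 16.3% and 24.1% of the *Hes1* UMIs in WT, and 19.1% and 28.0% in *Tipe0*-/-. Summed stem cell markers were at 711 CPM in WT and 995 CPM in *Tipe0*-/-. Of the 15 tested markers 0 were past the fold upward and 1 was past it downward (all genes: 4.23% and 6.9%). When each cluster was weighted in both libraries by the mean of its WT and *Tipe0*-/- shares of UMIs, *Hes1* was at 55.9 CPM in WT and 103 CPM in *Tipe0*-/-, which gives a log2 ratio of 0.88 (approximate interval 0.80 to 0.97) against 1.05 without weighting. The median gene was at 0.11 under this weighting. *Nrarp* came to 0.61 (0.48 to 0.73), *Dll1* to 0.51 (0.31 to 0.70), *Notch2* to 0.40 (0.15 to 0.66) and *Notch1* to 0.30 (0.13 to 0.46). *Hes6* came to -0.13 (-0.24 to -0.03). Relative to the median gene *Hes1* was then at 0.77 and still past 1.5-fold, while *Nrarp*, at 0.49, and *Dll1*, at 0.39, no longer were. The share of all genes past the fold was not computed under this weighting, so nothing is read from these calls.

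*Nrarp* was spread over the proliferative clusters and was low in enterocyte-like cells. In WT it was at 54.9 CPM (45.5 to 65.6) in the *Cdc6*, 46.4 CPM (40.6 to 52.7) in the cycling-like, 44.7 CPM (36.9 to 53.8) in the stem-like and 39.7 CPM (34.9 to 45.0) in the *Id4* goblet-like cluster, and the intervals of neighbours in this order overlapped, while those of the *Cdc6* and *Id4* clusters did not. The enteroendocrine-like value of 50.3 CPM (28.8 to 81.7), from 16 UMIs, lay among them, and tuft-like cells had 32.2 CPM (25.0 to 40.9). It was under 10 CPM in the Paneth-like, *Sval1* goblet-like and both enterocyte-like clusters. The *Tipe0*-/- values in the *Cdc6*, cycling-like, stem-like and *Id4* clusters were 75.1 CPM (62.5 to 89.6), 69.1 CPM (59.9 to 79.3), 64.3 CPM (54.7 to 75.1) and 60.2 CPM (54.2 to 66.8). The ratio lay above the cluster's median gene in 8 of the 8 clusters with at least 50 UMIs, and past the fold in 3 of them: the Paneth-like cluster, with 9.10 CPM (6.96 to 11.7) in WT and 20.3 CPM (16.0 to 25.5) in *Tipe0*-/-, the *Frmd3* goblet-like and the *Lrg1* cluster.

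*Hes6* was lower in *Tipe0*-/- in stem-like cells, opposite to *Hes1*. In the stem-like cluster it was at 119 CPM (106 to 133) in WT and 82.2 CPM (71.2 to 94.3) in *Tipe0*-/-, which gives a log2 ratio of -0.54 (-0.80 to -0.27). Cycling-like cells had 41.4 CPM (36.04 to 47.4) in WT and 33.0 CPM (26.8 to 40.3) in *Tipe0*-/-, and the *Cdc6* cluster 59.4 CPM (49.7 to 70.6) and 49.7 CPM (39.5 to 61.7), with overlapping intervals. The interval lay below the cluster's median gene in 3 of the 11 clusters with enough UMIs (stem-like, cycling-like and *Id4* goblet-like), and above it in 0. The only cluster past the fold was the *Sval1* goblet-like one, at 55.6 CPM (43.0 to 70.8) in WT and 37.7 CPM (24.6 to 55.2) in *Tipe0*-/-, with overlapping intervals. In Paneth-like cells *Hes6* was at 31.3 CPM (27.2 to 35.9) and 38.3 CPM (32.3 to 45.1), where the median gene had a log2 ratio of 0.48. The level nearest to that of stem-like cells was in the enteroendocrine-like cluster, at 101 CPM (68.8 to 142) in WT from 28 cells and 78.0 CPM (39.0 to 140) in *Tipe0*-/- from 15 cells.

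Counts of *Hes1* and *Hes6* in the same cells can be set against each other without any scaling of the libraries. In the stem-like cluster there were 1.07 UMIs of *Hes1* for each UMI of *Hes6* in WT (0.91 to 1.26) and 2.45 in *Tipe0*-/- (2.07 to 2.89). In the cycling-like cluster the ratio was 1.69 (1.42 to 2.01) in WT and 4.02 (3.21 to 5.08) in *Tipe0*-/-, and in the *Cdc6* cluster 1.52 (1.21 to 1.92) and 3.28 (2.55 to 4.25). Paneth-like cells had 0.819 (0.666 to 1.01) in WT and 1.52 (1.22 to 1.89) in *Tipe0*-/-. The intervals overlapped in tuft-like cells, at 0.853 (0.655 to 1.11) in WT and 1.43 (1.04 to 1.97) in *Tipe0*-/-. They also overlapped in the *Lrg1*, *Apoa4* and enteroendocrine-like clusters, where the ratio was higher in *Tipe0*-/- too. Over all cells the ratio was 1.10 (1.03 to 1.18) and 2.22 (2.07 to 2.38). Capture differs between genes, so only the change of this ratio between libraries is read.

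The ligand *Dll1* was highest in 2 of the 3 goblet-like clusters. In WT it was at 29.2 CPM (25.1 to 33.7) in the *Id4* and 28.7 CPM (19.8 to 40.0) in the *Sval1* goblet-like cluster, followed by stem-like cells at 17.0 CPM (12.3 to 22.9), tuft-like cells at 12.3 CPM (8.05 to 18.1), and the *Frmd3* goblet-like cluster at 9.78 CPM (5.89 to 15.3). The other clusters were lower still. The *Sval1* goblet-like cluster of *Tipe0*-/- had 75.4 CPM (56.3 to 98.9), with the log2 ratio at 1.39 (0.74 to 2.06) from 34 and 52 UMIs, and the *Id4* goblet-like cluster 38.8 CPM (34.0 to 44.2), with the log2 ratio at 0.41 (0.12 to 0.70). The stem-like value was 19.9 CPM (14.8 to 26.4) and the *Frmd3* value 19.7 CPM (12.01 to 30.4), both with intervals that overlap those of WT. *Atoh1*, which drives *Dll1* in secretory precursors, was in the *Sval1* cluster at 169 CPM (147 to 195) in WT and 283 CPM (244 to 325) in *Tipe0*-/-, in the *Id4* cluster at 58.5 CPM (52.7 to 64.8) and 72.9 CPM (66.2 to 80.1), and in the whole libraries at 25.9 CPM (24.3 to 27.5) and 38.5 CPM (36.01 to 41.0). *Spdef*, a goblet and Paneth cell regulator, had 19.4 CPM (18.1 to 20.9) in WT and 15.6 CPM (14.02 to 17.2) in *Tipe0*-/- whole libraries. In the *Id4* cluster it was lower in *Tipe0*-/-, opposite to *Atoh1* and *Dll1* there, at 60.6 CPM (54.7 to 67.0) in WT and 33.6 CPM (29.1 to 38.6), a log2 ratio of -0.85 (-1.11 to -0.60). In the *Sval1* cluster it was at 102 CPM (84.6 to 122) and 107 CPM (84.2 to 135).

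*Dll4* was sparse, with its highest WT level of 11.5 CPM (8.98 to 14.5) again in the *Id4* goblet-like cluster and 13.0 CPM (10.3 to 16.2) there in *Tipe0*-/-. Its intervals there overlapped those in tuft-like cells, at 9.48 CPM (5.79 to 14.6) in WT and 16.7 CPM (9.72 to 26.7) in *Tipe0*-/-, and those in the *Apoa4* enterocyte-like cluster, at 7.91 CPM (5.30 to 11.4) and 11.3 CPM (6.79 to 17.6). In none of these clusters did the WT and *Tipe0*-/- intervals separate. *Jag1* was under 10 CPM in every WT cluster. Its highest WT value was 9.60 CPM (5.94 to 14.7) in the *Cdc6* cluster, against 13.3 CPM (8.35 to 20.2) in *Tipe0*-/-, followed by stem-like cells, at 9.50 CPM (6.09 to 14.1) against 6.92 CPM (4.03 to 11.1). The highest *Tipe0*-/- value, 28.4 CPM (7.73 to 72.7) in enteroendocrine-like cells, came from 4 UMIs.

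*Notch1* was highest in the stem-like cluster in both libraries. It was at 65.3 CPM (55.8 to 76.1) in WT stem-like cells and at 65.1 CPM (55.4 to 76.0) in those of *Tipe0*-/-, where the interval of the log2 ratio ran from -0.33 to 0.32. Other WT clusters were lower. Enteroendocrine-like cells had 44.0 CPM (24.1 to 73.9) from 14 UMIs, an interval that overlaps the stem-like one. Lymphocyte-like cells had 33.2 CPM (19.0 to 53.9) from 16 UMIs and the *Cdc6* cluster 25.6 CPM (19.3 to 33.3). Cycling-like cells had 17.3 CPM (13.9 to 21.3), and *Sval1* goblet-like cells 1.69 CPM from 2 UMIs. Only the Paneth-like cluster, at 11.2 CPM (8.80 to 14.03) in WT and 20.6 CPM (16.3 to 25.8) in *Tipe0*-/-, and the tuft-like cluster, at 21.8 CPM (16.0 to 29.1) and 40.2 CPM (28.9 to 54.6), had log2 ratios whose interval lay above 0 among the 6 clusters with enough UMIs, and set against the cluster's median gene only the tuft-like one did. *Notch2* had its highest WT level in stem-like cells too, at 19.4 CPM (14.4 to 25.7) against 21.6 CPM (16.2 to 28.2) in *Tipe0*-/-, and in none of the 5 clusters with at least 50 UMIs was it past the fold. *Rbpj* varied least over clusters, between 7.16 CPM (5.28 to 9.49) in Paneth-like and 39.4 CPM (23.7 to 61.6) in lymphocyte-like cells of WT, a 5.51-fold span. It was past the fold in 1 of 10 clusters, lower in *Tipe0*-/- in the *Frmd3* goblet-like cluster with 42 UMIs in WT and 11 in *Tipe0*-/-.

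Counted by cluster, 1 of 7 members with at least 50 UMIs was at least 1.5-fold higher than the median gene in the stem-like cluster (4.66% of all genes), 1 of 6 in the *Cdc6* cluster (5.88%), 1 of 7 in the cycling-like cluster (4.5%) and 1 of 9 in the *Id4* goblet-like cluster (4.04%). That gene was *Hes1* each time. The Paneth-like cluster had 2 of 8, *Hes1* and *Nrarp* (5.36% of all genes), and the tuft-like cluster 2 of 5, *Hes1* and *Notch1* (6.98%). The *Sval1* cluster had 2 of 3 higher, *Hes1* and *Dll1* (7.60%), and 1 lower, *Hes6* (9.42%). The *Frmd3* cluster had 2 of 4 higher, *Hes1* and *Nrarp* (6.70%), and 1 lower, *Rbpj* (6.34%). In the *Lrg1* cluster 2 of 4 were higher, *Hes1* and *Nrarp* (7.35%). The *Arg2* and *Apoa4* clusters had 1 of 3 each, *Hes1* (6.80% and 8.64%). Nothing is read from these counts, as the genes were chosen from this contrast. The grid of ratios within clusters shows these values.

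**Figure D4:**
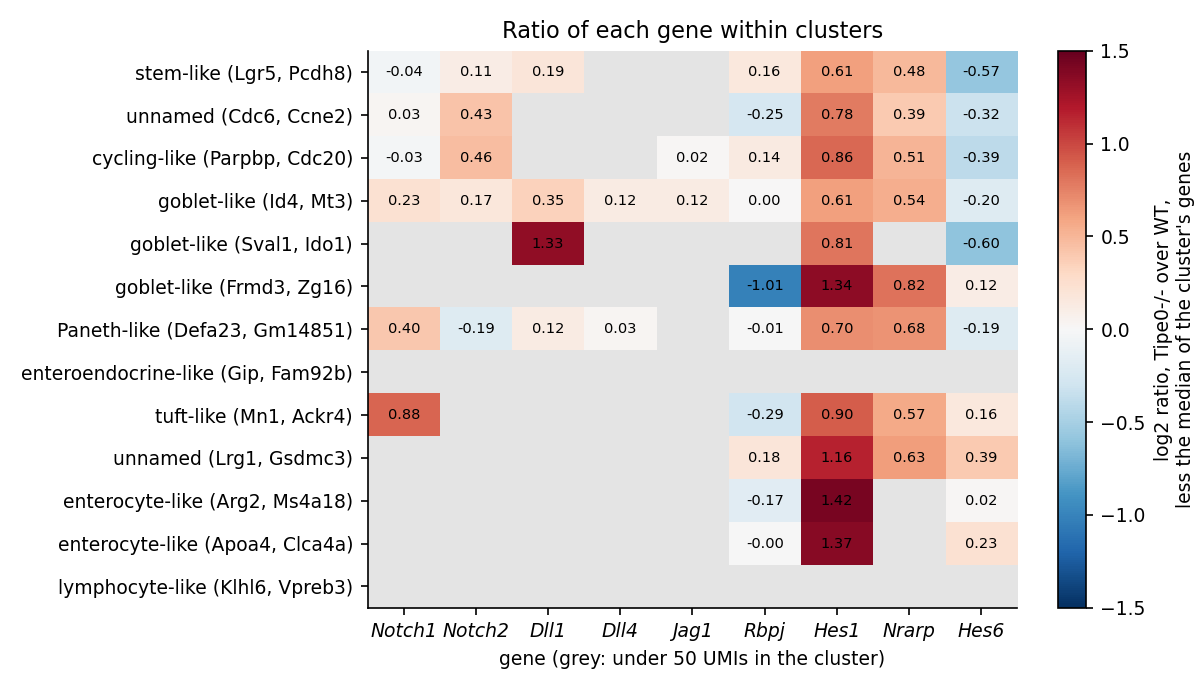
Log2 ratio, *Tipe0*-/- over WT, of each gene (columns) in each cluster (rows) less the median of the cluster's genes, red where higher and blue where lower in *Tipe0*-/-. Grey cells had under 50 UMIs over both libraries. The *Hes1* column is positive in 11 of 11 filled cells, and *Hes6* is lowest in the *Sval1* goblet-like (-0.60) and stem-like (-0.57) clusters.

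After each cell was thinned to 3000 UMIs, so that depth could not set the shares, a UMI of *Hes1* was found in 498 of 3402 WT cells, or 14.6% (13.5 to 15.9), and in 533 of 2006 *Tipe0*-/- cells, or 26.6% (24.6 to 28.6). Without thinning the shares were 35.5% and 52.9%. Among thinned cells with a UMI the mean was 1.197 UMIs in WT and 1.34 in *Tipe0*-/-. Cells with 2 UMIs were 1.88% of WT and 5.23% of *Tipe0*-/- cells. By cluster, the share went from 32.9% (27.6 to 38.5) in WT to 42.6% (36.3 to 49.0) in *Tipe0*-/- stem-like cells, with overlapping intervals. It went from 18.4% (14.7 to 22.5) to 39.4% (33.1 to 46.0) in cycling-like cells, and from 6.80% (4.40 to 9.95) to 18.8% (13.3 to 25.3) in *Arg2* enterocyte-like cells. The intervals were apart in these and in the *Cdc6* and *Lrg1* clusters. *Id4* goblet-like cells had 19.01% (15.2 to 23.3) and 23.6% (18.98 to 28.7), which overlap. Shares in the Paneth-like, tuft-like, *Sval1* and *Frmd3* goblet-like clusters were higher in *Tipe0*-/- too, with overlapping intervals. In *Apoa4* enterocyte-like cells the share was lowest, at 2.05% (0.94 to 3.85) and 3.52% (1.53 to 6.83), and the intervals overlap. Without thinning the stem-like shares were 59.1% and 69.5%, the cycling-like shares 50.2% and 68.2%, and the *Apoa4* shares 4.09% and 7.05%. For *Hes6* the thinned shares over all cells were 13.1% (11.96 to 14.3) and 13.3% (11.9 to 14.9), and for *Nrarp* 7.64% (6.77 to 8.59) and 11.02% (9.68 to 12.5). Unthinned, *Hes6* was found in 33.7% of WT and 35.99% of *Tipe0*-/- cells, and *Nrarp* in 20.99% and 32.1%.

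A UMI of *Dll1* was found in 8.85% (6.21 to 12.2) of WT and 15.0% (11.2 to 19.4) of *Tipe0*-/- cells of the thinned *Id4* goblet-like cluster, and before thinning in 32.6% and 45.9%. As a background, it was found in 1.59% (0.64 to 3.25) of WT and 3.08% (up to 6.25) of *Tipe0*-/- cells of the *Apoa4* enterocyte-like cluster, whose median depths before thinning were 6613.5 and 5774 UMIs. It was found in 0 of 92 WT lymphocyte-like cells, which allows a share of up to 3.26%. *Dll4* had 3.91% (2.20 to 6.36) and 5.10% (2.94 to 8.14) in the *Id4* goblet-like against 2.27% (1.10 to 4.14) and 3.08% (up to 6.25) in the *Apoa4* cluster, and these intervals overlap in both libraries. The *Apoa4* cluster was not the lowest for either ligand. In the WT *Lrg1* cluster *Dll1* was at 1.61 CPM (0.44 to 4.13) and *Dll4* at 1.21 CPM (0.25 to 3.54). The overlap therefore does not place *Dll4* of the *Id4* cluster at background, and the source of the *Apoa4* UMIs was not tested.

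**Figure D5:**
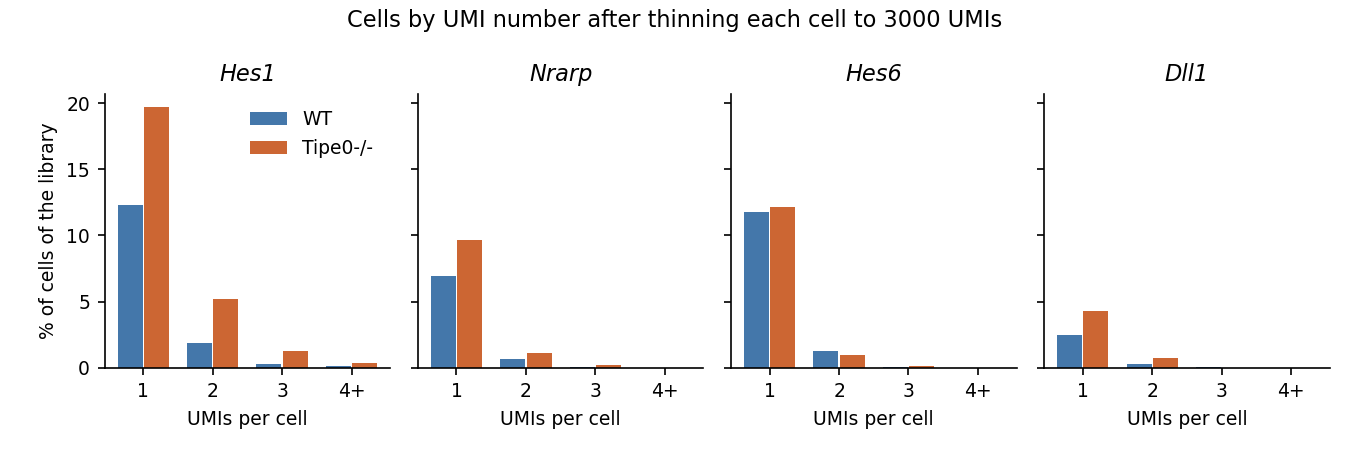
Share of cells (% of the library) with 1, 2, 3 or at least 4 UMIs of *Hes1*, *Nrarp*, *Hes6* and *Dll1* after each cell was thinned to 3000 UMIs, in WT (blue) and *Tipe0*-/- (orange). Cells with 1 UMI of *Hes1* are 12.3% of WT and 19.7% of *Tipe0*-/- cells, and those with 1 UMI of *Hes6* are 11.8% and 12.2%.

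Within single thinned cells, *Hes1* was set against *Dll1*, its counterpart in lateral inhibition. Cells with a UMI of *Dll1* held 0.316 UMIs of *Hes1* per 10000 in WT (0.144 to 0.599; 95 cells), against 0.592 (0.545 to 0.642) in the 3307 cells without, and these intervals just overlap. In *Tipe0*-/- the values were 0.726 (0.455 to 1.10; 101 cells) and 1.21 (1.12 to 1.31), which do not. Inside the *Id4* goblet-like cluster alone the intervals overlapped in both libraries, with 0.294 (0.0607 to 0.860) against 0.762 (0.604 to 0.948) in WT and 0.851 (0.440 to 1.49) against 0.974 (0.770 to 1.22) in *Tipe0*-/-. In the *Sval1* cluster they overlapped as well, and the direction differed, with 0.417 against 0.295 in WT and 0.167 against 0.623 in *Tipe0*-/-. In the 240 WT cells with a UMI of *Atoh1*, *Hes1* was at 0.528 (0.373 to 0.724), against 0.588 (0.540 to 0.639) in those without, which overlap. In *Tipe0*-/- the values were 0.731 (0.524 to 0.991; 187 cells) and 1.24 (1.14 to 1.33), which do not. Within the *Id4* cluster the *Hes1* intervals by *Atoh1* overlapped in both libraries, with 0.787 against 0.705 in WT and 0.880 against 0.978 in *Tipe0*-/-. *Dll1* itself was detected together with *Atoh1*, at 0.417 UMIs per 10000 (0.281 to 0.595) in WT cells with a UMI of *Atoh1* and 0.0822 (0.0650 to 0.103) in those without, and at 0.588 (0.405 to 0.826) and 0.152 (0.121 to 0.189) in *Tipe0*-/-. These contrasts over all cells include the difference between clusters, and within the *Id4* cluster the *Dll1* intervals overlapped too, with 0.509 (0.254 to 0.911) and 0.299 (0.199 to 0.432) in WT. Within the *Sval1* cluster *Dll1* was at 0.421 with and 0.273 without *Atoh1* in WT. In *Tipe0*-/- the direction there was opposite, at 0.657 and 0.774, and the intervals overlapped in both libraries.

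*Hes1* responds quickly to stimuli, so its level was set beside a list of 19 genes, mostly immediate early genes, that can respond to cell dissociation. Their summed level was 711 CPM in WT and 707 CPM in *Tipe0*-/-. Of the 16 with at least 50 UMIs, 0 were past the fold upward and 2 were past it downward (all genes: 4.23% and 6.9%), *Atf3*, at 7.29 and 4.06 CPM, and *Socs3*, at 27.3 and 18.7 CPM. Within the fold the genes differed in direction, so the sum does not describe each of them: 7 of the 16 lay above the median gene and 9 below. *Egr1* had a log2 ratio of 0.65 (0.43 to 0.87) and *Dusp1* one of 0.56 (0.18 to 0.94). *Zfp36* (0.31), *Ier2* (0.30) and *Fos* (0.28) were also higher in *Tipe0*-/-, with intervals above 0. *Jund*, the most abundant of the 19, was at 262 and 240 CPM, followed by *Klf4* (101 and 98.7 CPM) and *Klf6* (83.8 and 82.7 CPM). The sum and the share used below are therefore weighted to these abundant genes. When the cells of each cluster were cut into 3 groups by the share of the 19 genes, *Hes1* in the group with the smallest share was at 44.0 CPM in WT and 113 CPM in *Tipe0*-/-, which gives a log2 ratio of 1.35 (1.204 to 1.51). In the middle group the values were 53.7 and 102 CPM, a log2 ratio of 0.93 (0.78 to 1.07), and in the group with the largest share 59.9 and 110 CPM, a log2 ratio of 0.87 (0.72 to 1.03). Whether dissociation had a part in the *Hes1* difference was not tested, and with 1 library per genotype it cannot be told apart from the genotype.

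The wider pathway was read from a list of 71 genes that includes the members, of which 56 had at least 50 UMIs. Of these, 4 were at least 1.5-fold higher in *Tipe0*-/- than the median gene (*Hes1*, *Nrarp*, *Dll1* and *Hes5*), and 1 was at least 1.5-fold lower (*Aph1b*), beside 4.23% and 6.9% of all genes. The median log2 ratio of the 56 was 0.23, beside 0.15 for all genes. Of the 4 higher genes 3 are members chosen from this contrast, and all 9 members are among the 56. Nothing is therefore read from the count or the median. *Hes5*, another Notch target, was rare, at 0.603 CPM in WT and 1.13 CPM in *Tipe0*-/- from 23 and 27 UMIs. Without the 5% highest doublet scores it was no longer called. Targets under 50 UMIs got no call, and of these *Dtx1* had 37 UMIs in WT and 5 in *Tipe0*-/-, and *Hes7* 17 and 5. The targets *Hey1*, *Hey2* and *Heyl* had at most 3 UMIs in a library. *Aph1b*, a subunit of the gamma-secretase that cleaves the receptors, was at 2.81 and 1.92 CPM, and 0 of the other 8 tested cleavage genes were past the fold, with *Psenen* the most abundant at 197 and 193 CPM.

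Ligand endocytosis, receptor glycosylation, the nuclear complex and the corepressors held no gene past the fold. Of 5 genes for ligand endocytosis the most abundant, *Neurl3*, was at 53.3 and 60.6 CPM. Of 4 tested genes that add sugars to the receptor, *Pofut1* led with 16.7 and 19.0 CPM. Among 7 genes of the nuclear complex *Snw1* was at 49.0 and 52.6 CPM, and among 12 corepressors *Aes* was at 230 and 218 CPM. Of the 7 tested inhibitors *Nrarp* alone was past the fold, and the most abundant, *Itch*, was at 46.9 and 55.3 CPM. *Olfm4*, a stem cell gene known to need Notch, was at 6.22 CPM (5.45 to 7.06) in WT and 6.57 CPM (5.58 to 7.68) in *Tipe0*-/-. In the stem-like cluster it was at 36.4 CPM (29.4 to 44.7) in WT and 27.7 CPM (21.5 to 35.1) in *Tipe0*-/-, with overlapping intervals. Weighted to the same makeup of clusters its log2 ratio was -0.25 (-0.54 to 0.05). Of 12 tested secretory transcription factors 2 were past the fold upward, where 4.23% of all genes were: *Neurog3*, the endocrine factor, at 0.682 and 1.59 CPM from 26 and 38 UMIs, and *Foxa2*, at 5.35 and 10.5 CPM, while the most abundant, *Foxa3*, was at 32.5 and 34.98 CPM. *Pou2f3*, the tuft cell factor, was past it downward, where 6.9% of all genes were, at 3.67 and 2.68 CPM, and summed tuft cell markers were at 489 and 348 CPM. Tuft-like cells were 4.67% (3.99 to 5.44) of WT and 2.44% (1.81 to 3.22) of *Tipe0*-/- cells. From whole-library values alone, a smaller share of cells of a type and less RNA per cell cannot be told apart.

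Patterns over clusters were compared by Pearson's r of log2(CPM + 10) over the 26 sums of a cluster in a library. These points share libraries and depth, and the values are descriptions. Among the members, *Hes1* was most like *Nrarp* (r = 0.86), and had r = 0.07 with *Dll1*. *Notch1* was most like *Notch2* (r = 0.84) and *Hes6* (r = 0.81), and *Dll1* was most like *Dll4* (r = 0.64). Over all genes with at least 200 UMIs, the 5 most like *Hes1* were *Nfia* (r = 0.94), *Ivns1abp*, *Rps28*, *Rps27* and *Rps26-ps1*, 3 of them ribosomal protein genes or pseudogenes. The 5 most like *Dll1* were *1810055G02Rik* (r = 0.89), *Atoh1* (r = 0.85), *Fgfr3*, *Rasd2* and *Srgap1*. *Notch1* was closest to *Cdo1* (r = 0.95), *Sox4*, *Zfos1*, *Cdk6* and *Hmga1*, and *Hes6* to *Slc23a3* (r = 0.93), *Amotl1*, *Slco3a1*, *Smo* and *Zfpm1*. *Jag1* was closest to *Bckdhb* (r = 0.90), *Exog*, *Cep290*, *Dus4l* and *Slc25a42*. All 26 sums counted equally, and the highest *Jag1* sum was 28.4 CPM from 4 UMIs, in *Tipe0*-/- enteroendocrine-like cells. How far that sum sets the *Jag1* list was not tested. *Dll4* had no gene above r = 0.74, with *Tanc2*, *Selm*, *Kit*, *Inafm1* and *Tm4sf4* at the head of its list.

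By GENCODE annotation on GRCm38, the build of the files (mm10), *Hes1* (ENSMUSG00000022528) lies on chromosome 16 at 30064384 to 30067796 on the plus strand. *Nrarp* (ENSMUSG00000078202) lies on chromosome 2 at 25180758 to 25183339, plus strand, and *Hes6* (ENSMUSG00000067071) on chromosome 1 at 91411483 to 91414038, minus strand. *Dll1* (ENSMUSG00000014773) lies on chromosome 17 at 15367354 to 15376872 and *Jag1* (ENSMUSG00000027276) on chromosome 2 at 137081456 to 137116644, both on the minus strand. *Dll4* (ENSMUSG00000027314) lies on chromosome 2 at 119325784 to 119335962, plus strand. *Notch1* (ENSMUSG00000026923) lies on chromosome 2 at 26457903 to 26516663, minus strand, and *Notch2* (ENSMUSG00000027878) on chromosome 3 at 98013527 to 98150361, plus strand. *Rbpj* (ENSMUSG00000039191) lies on chromosome 5 at 53466152 to 53657362, plus strand. Reads of this chemistry come from the 3′ end of transcripts, so the values give mRNA of a gene and neither its isoforms nor cleavage of the receptors.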

How the data were processed

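Per the labels, epithelial cells were isolated with EDTA and digested with collagenase and dispase (the methods name DNase I in place of collagenase), captured with Chromium 3′ chemistry, and processed with Cell Ranger against mm10. The authors deposited raw UMI counts per gene and cell, without normalization, which were used as deposited. No cell was left out. Genes were read by symbol, summed per library or cluster, and given as CPM, with 0.5 added to each sum for ratios. Clusters came from Seurat 5.3.0 under R 4.3.3 (520 variable genes without the study's 117 genotype genes and all listed Notch genes, 14 principal components, resolution 0.8). A cluster took the class with the highest mean marker score if at least 3 markers were in 10% of its cells and in 1.5 times the share of other cells. Scrublet (Scanpy 1.11.5) called 15 WT and 3 *Tipe0*-/- cells, too few to have worked, so doublets were treated only in an alternative. With 1 library per genotype there is no test. Ratios and intervals were tested on simulated data. Intervals are exact Poisson, binomial for ratios and Clopper-Pearson for shares, and approximate for weighted sums. Genes named are the members, the most abundant gene and those past the fold in each role list, *Atoh1*, *Spdef*, *Neurog3* and *Olfm4*, and the 5 genes most similar to *Hes1*, *Hes6*, *Dll1*, *Dll4*, *Notch1* and *Jag1*. *Nnt* and values of other list members were added. The members and lists were chosen with earlier results of these data known.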

Additional observations from a re-analysis of the deposited data

How the results depend on the processing

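No paired analysis was possible because each genotype has 1 library. Over 48 alternative values of the *Hes1* log2 ratio (other totals, clusterings, classes and cells left out) all 48 were above 0, from 0.47 to 1.69, and 45 moved by less than the counting interval. Scaling to the median gene gave 0.90 for whole libraries and 0.77 at the same makeup of clusters, and clustering on 2000 variable genes gave 1.10 within enterocyte-like cells, against 1.55. *Nrarp* was above 0 in 48 of 48, from 0.30 to 1.27, *Dll1* in 30 of 36 and *Hes6* in 20 of 48. With a fold only 25% from the median gene, which 13.9% of all genes passed upward and 15.9% downward, 5 members were higher in place of 3, *Notch1* and *Notch2* being added, and 9 genes of the wider list in place of 4. The number of wider-list genes past the fold downward was 1, and became 2 without the 5% highest doublet scores or without the 10 richest cells per library, 4 with a minimum of 20 UMIs (9.06% of all genes) or with the smaller fold, and 8 with no minimum, where 17.6% of all genes were past the fold downward. The share of cells with *Hes1* was 35.5% in WT and 52.9% in *Tipe0*-/- without thinning, and 2.32% and 6.83% for at least 2 UMIs. Depth limits *Dll1*, *Dll4*, *Jag1*, *Notch1* and *Notch2*, which had under 50 UMIs in most clusters. With 1 library per genotype the spread between animals is unknown.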
